A study of Mus musculus with 9 samples.

Results

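The transforming growth factor beta (TGF-beta) pathway was followed through 10 genes around a mouse brain infarct, the ligands Tgfb1, Tgfb2 and Tgfb3, the latent binding proteins Ltbp1 and Ltbp2, the receptors Tgfbr1 and Tgfbr2, the signal carrier Smad3, its inhibitor Smad7 and the secreted target Tgfbi. The genes were taken by symbol from a list of pathway members, and all 10 were found among the 55401 genes of the deposited table. RNA was sequenced at day 28 from 9 libraries of wild-type mouse brain in 3 groups of 3. Sham mice were given ultrapure water, photothrombosis (PT) mice had a stroke induced by light-triggered clotting and were given the same water, and Pushen mice, also operated on, were given the drug preparation Pushen in that water by gavage, from the day after surgery to the end; the infarct of the Pushen group is read from the labels' surgery and PT model, which they do not restate per sample. The labels give the Pushen libraries 391, 392 and 393 mg/kg, 1 library per dose, and they were treated as 1 group. The numbers rise by 1 from library to library, and whether they are separate intended doses or a slip in the labels cannot be told from them. The labels state no strain, sex or age. Nor do they tie each library to a mouse of its own, and the p-values therefore reflect variation from library to library, which may be technical.

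TGF-beta ligands are secreted in a latent complex, bound to their own propeptide and often to a latent TGF-beta binding protein that tethers the complex to the matrix. Once freed by integrins, proteases or thrombospondin, the ligand joins the type II receptor Tgfbr2 to the type I receptor Tgfbr1. Tgfbr1 phosphorylates Smad2 and Smad3, which enter the nucleus with Smad4, while Smad7 is induced by the signal and blocks the receptor. In injured brain the pathway is known for its part in microglial identity, astrocyte reactivity and the fibrotic scar.

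Deposited counts summed to between 57437342 and 75100133 per library. By summed FPKM (fragments scaled to gene length and library depth), 11 choroid plexus markers reached 630 for PT library 1, 720 for Pushen library 2 and 198 for Pushen library 3, whereas the remaining libraries had 36.3 to 82.7. The transthyretin gene Ttr made up most of these 3 sums (528, 607 and 146), so that all 3 rest mainly on 1 gene. Without Ttr they were 102, 113 and 51.6, beside 33.3 to 42.3 in the remaining libraries. Striatal markers stood at 574 in PT library 1 and between 75.7 and 142 elsewhere. Results were therefore also computed without PT library 1 and Pushen library 2. Neuron markers were abundant in all libraries, with sums between 840 and 1395 FPKM. In PT 7 of 10 fell against Sham, beside 11.8% of all tested genes. The labels call the tissue brain, while their extraction text names the retina; of 15 photoreceptor markers, 13 stayed under 0.5 FPKM in every library.

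Promoter sequences are shown for 5 genes, the 3 whose levels changed most (Ltbp2, Tgfbi and Tgfb1) and, for contrast, Tgfb2 and Smad3, which did not pass the test. They come from RefSeq on build GRCm38.p6, are written 5′ to 3′ on the gene's strand, and end just before the first base of the gene in the deposited table. Capitals mark the Smad binding core, CAGAC or its reverse complement GTCTG. The Ltbp2 stretch lies at chr12:84876533-84876741 on the minus strand, the Tgfbi stretch at chr13:56609336-56609522 on the plus strand and the Tgfb1 stretch at chr7:25686752-25687001 on the plus strand. Those of Tgfb2 and Smad3 lie at chr1:186705990-186706239 and chr9:63757995-63758244, both on the minus strand. The whole Ltbp2 stretch and 167 bases of the Tgfb2 stretch also lie in exons of another gene in the annotation.
Ltbp2: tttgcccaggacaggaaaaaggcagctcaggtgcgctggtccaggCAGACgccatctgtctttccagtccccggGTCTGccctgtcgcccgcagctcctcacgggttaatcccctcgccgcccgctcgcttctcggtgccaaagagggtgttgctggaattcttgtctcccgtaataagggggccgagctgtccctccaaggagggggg
Tgfbi: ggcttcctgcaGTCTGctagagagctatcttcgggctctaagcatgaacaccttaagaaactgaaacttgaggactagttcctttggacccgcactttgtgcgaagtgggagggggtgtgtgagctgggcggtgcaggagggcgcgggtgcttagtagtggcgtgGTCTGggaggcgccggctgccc
Tgfb1: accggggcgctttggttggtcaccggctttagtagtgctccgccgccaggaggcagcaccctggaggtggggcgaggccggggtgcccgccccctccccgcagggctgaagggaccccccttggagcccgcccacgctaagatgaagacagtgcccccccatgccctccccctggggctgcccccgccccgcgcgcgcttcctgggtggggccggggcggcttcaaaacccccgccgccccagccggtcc
Tgfb2: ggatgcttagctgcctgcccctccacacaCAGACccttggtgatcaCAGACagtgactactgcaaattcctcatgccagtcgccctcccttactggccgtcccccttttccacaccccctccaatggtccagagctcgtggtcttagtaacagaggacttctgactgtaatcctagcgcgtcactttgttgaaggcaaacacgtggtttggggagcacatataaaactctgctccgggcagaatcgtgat
Smad3: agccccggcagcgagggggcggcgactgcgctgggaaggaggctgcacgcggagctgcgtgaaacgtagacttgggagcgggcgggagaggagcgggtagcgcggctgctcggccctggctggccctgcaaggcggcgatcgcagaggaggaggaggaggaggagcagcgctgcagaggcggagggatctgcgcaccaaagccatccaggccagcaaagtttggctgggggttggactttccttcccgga

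The core was present 2 times each in the Ltbp2, Tgfbi and Tgfb2 stretches and 0 times in those of Tgfb1 and Smad3. Thus a gene with a large change and one that did not pass stand on each side of that count. Of 32851 RefSeq promoters, 42.2% hold the core at least once, on either strand, in the 250 bases before the start. The full Smad palindrome GTCTAGAC, held by 0.167% of them, and the AP-1 site TGANTCA, held by 6.75%, were in none of the 5 stretches. The GC box GGGCGG, searched on both strands, occurred 5 times in the Tgfb1 stretch, 2 times in that of Smad3, 1 time each in those of Ltbp2 and Tgfbi and 0 times in that of Tgfb2, and is held by 32.7% of promoters. The shares refer to 250 bases, while the printed stretches of Ltbp2 and Tgfbi hold 209 and 187. In the full 250 bases before the RefSeq start, Ltbp2 had 2 GC boxes and Tgfbi 1, and each had 2 cores. These matches describe letters only.

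The comparison of PT with Sham addressed how the infarct changed these transcripts. The ligand Tgfb1, both latent binding proteins, both receptors, Smad7 and the target Tgfbi were higher in PT, and Tgfb3 rose by less. Of the 10 genes 8 rose, 0 fell and 2, Tgfb2 and Smad3, did not pass, with a median log2 fold change of 0.98. Of all 16740 tested genes, 30.9% were called (19.1% higher and 11.8% lower), with a median of -0.0029. By FPKM, every PT library lay above every Sham library in 9 of the 10 genes, a separation seen upward in 29.3% of all tested genes. All 10 genes had passed the filter of a mean of 0.5 FPKM over the 9 libraries, but Ltbp2, at a mean of 0.113 FPKM in Sham, passed only through the infarct groups and so had to differ. Of the other 9 genes 7 rose, with a median of 0.74. In bulk tissue, more cells of a type and more RNA per cell cannot be told apart.

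**Figure D1:**
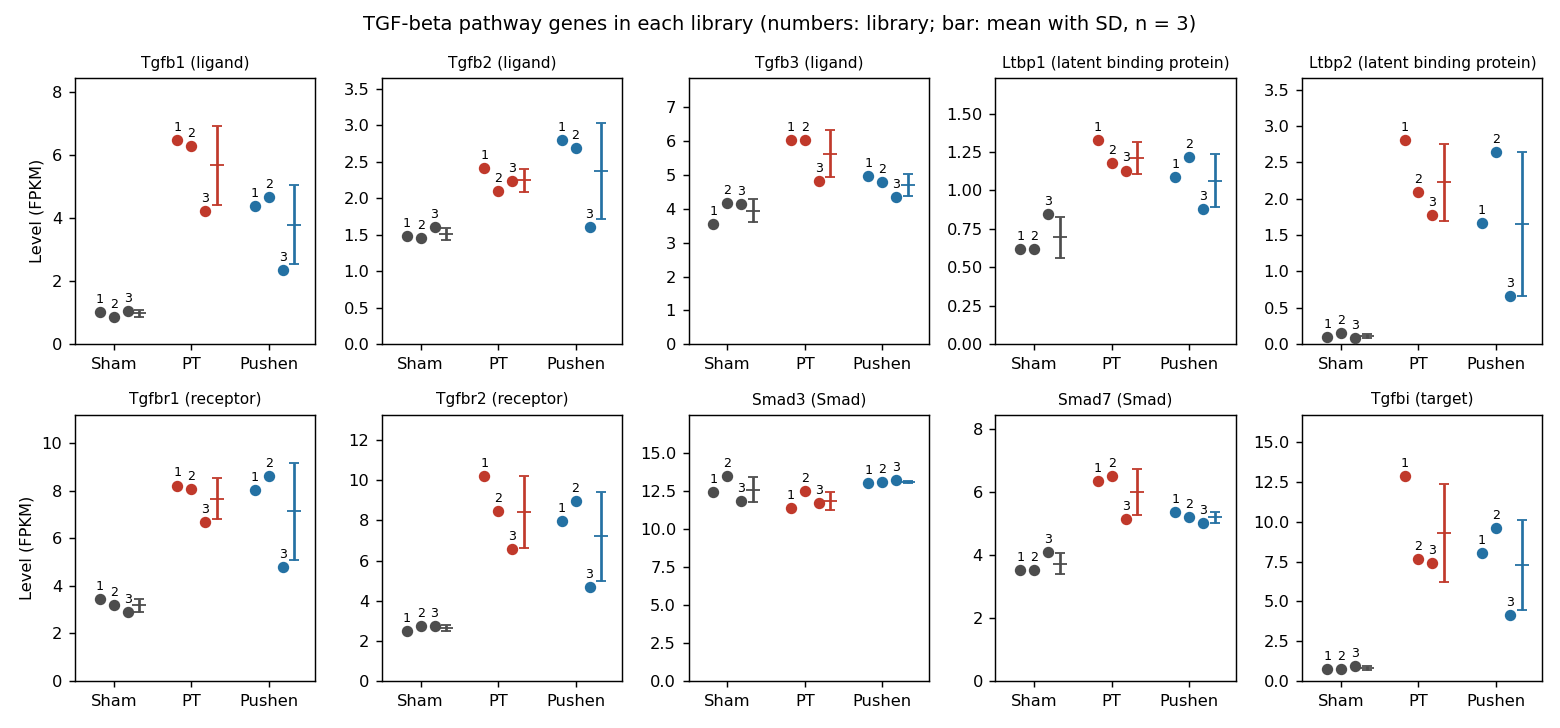
Level in FPKM (vertical axes, from 0) of each of the 10 genes in the 3 libraries of each group (points, numbered by library) with the group mean and SD (n = 3). In 9 of 10 genes every PT library lies above every Sham library, and in 9 of 10 genes Pushen library 3 is the lowest of the 6 infarct libraries; Smad3 is the exception in both.

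Among the ligands, Tgfb1, the form made by microglia and macrophages, changed most. It stood at 1.01, 0.86 and 1.06 FPKM in Sham libraries 1 to 3, at 6.48, 6.29 and 4.23 in PT and at 4.37, 4.66 and 2.35 in Pushen. Every infarct library lay above every Sham library, and Pushen library 3 was the lowest of the 6. The fitted rise in PT was 5.54-fold, a log2 fold change of 2.47 ± 0.27 (SE; edgeR's quasi-likelihood test, Benjamini-Hochberg adjusted p = 0.000536). Tgfb3, the most abundant ligand transcript in Sham, stood at 3.56, 4.16 and 4.13 FPKM in Sham, 6.02, 6.04 and 4.83 in PT and 4.96, 4.79 and 4.35 in Pushen. Its groups were apart in PT against Sham, with a log2 fold change of 0.45 ± 0.11 (edgeR adjusted p = 0.0164), but the call was lost without Sham library 1, without PT library 2, or without PT library 1 and Pushen library 2 together (adjusted p = 0.0622, 0.0538 and 0.0709), and with quantile normalisation, where the log2 fold change was 0.25 (limma adjusted p = 0.0997). Tgfb2, a form known from astrocytes and neurons, stood at 1.48, 1.45 and 1.61 FPKM in Sham, 2.41, 2.10 and 2.23 in PT and 2.80, 2.69 and 1.61 in Pushen. The PT libraries all lay above the Sham libraries, yet the log2 fold change of 0.51 ± 0.19 had an edgeR adjusted p of 0.067. Without Pushen library 3, which enters the shared estimate of spread, the fold change passed (adjusted p = 0.00706), and with all libraries it passed under DESeq2 (0.0427) and, without the whole Pushen group, in the edgeR fit of PT and Sham alone (0.0163).

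Tgfb1 made up a larger part of the ligand transcripts in every PT library than in any Sham library. Since FPKM is per length, the 3 ligands can be set side by side within a library, and their summed level was 6.44 ± 0.376 FPKM in Sham, 13.5 ± 1.97 in PT and 10.9 ± 2.21 in Pushen (SD, n = 3 each). Tgfb1 made up 16.7%, 13.3% and 15.6% of that sum in the Sham libraries, 43.5%, 43.6% and 37.5% in PT and 36.0%, 38.4% and 28.3% in Pushen. Tgfb3 made up 58.8%, 64.3% and 60.7% in Sham, 40.4%, 41.9% and 42.8% in PT and 40.9%, 39.5% and 52.3% in Pushen. The Sham and PT libraries did not overlap in either share, and the differences of the means were 26.3 percentage points for Tgfb1 and -19.6 for Tgfb3. The exact two-sided permutation test gave p = 0.1 for both, the smallest that 3 libraries against 3 allow. The share of Tgfb2 was 23.5% ± 1.04 in Sham, 16.8% ± 2.66 in PT and 21.5% ± 1.93 in Pushen. Over these 3 ligands and 3 pairs of groups, 9 such comparisons were made, and none could pass 0.05.

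**Figure D2:**
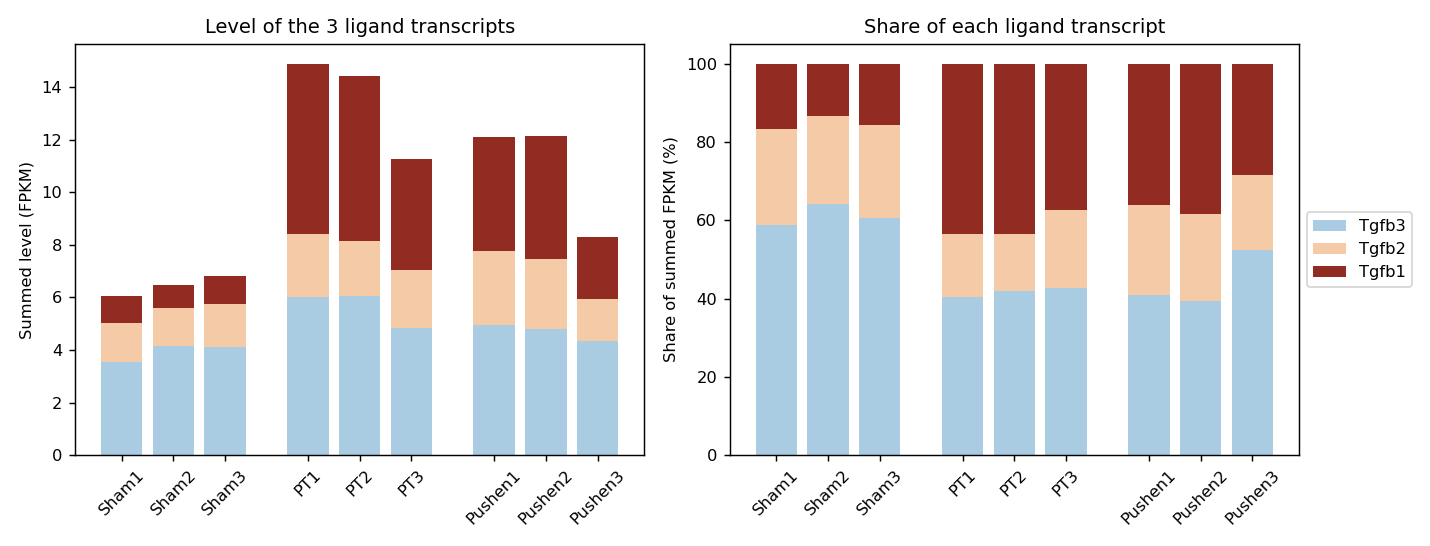
Stacked bars of the 3 ligand transcripts in each library, as summed level in FPKM (left) and as percent of that sum (right), both from 0. The Tgfb1 part is between 13.3% and 16.7% in the Sham libraries and between 28.3% and 43.6% in the infarct libraries.

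Both latent binding proteins rose, Ltbp2 by far more than Ltbp1. Ltbp2, an extracellular matrix protein of the family that does not itself bind latent TGF-beta, had the largest change of the 10 genes. Its level was 0.10, 0.15 and 0.09 FPKM in Sham, with 62, 99 and 60 counts, then 2.81, 2.09 and 1.78 in PT and 1.66, 2.64 and 0.66 in Pushen. All infarct libraries were above all Sham libraries, by a fitted 18.8-fold in PT (log2 fold change 4.23 ± 0.49, edgeR adjusted p = 0.00062). The size depends on the scale, since on log2(FPKM + 1), which understates changes of low genes, the difference was 1.52 (limma adjusted p = 0.00377). In GENCODE M21 the antisense gene D030025P21Rik shares 9.34% of the exon bases of Ltbp2; it had at most 71 counts in a library, and whether reads were counted by strand is not stated. Ltbp1, which tethers latent TGF-beta to the matrix, stood at 0.62, 0.62 and 0.85 FPKM in Sham, 1.33, 1.18 and 1.13 in PT and 1.09, 1.22 and 0.88 in Pushen. Its rise in PT was 1.67-fold (log2 fold change 0.74 ± 0.16, edgeR adjusted p = 0.00958), and 0.39 on the log2(FPKM + 1) scale (limma adjusted p = 0.0193).

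Receptor transcripts rose together. Tgfbr2, the ligand-binding type II receptor, stood at 2.48, 2.74 and 2.72 FPKM in Sham, 10.19, 8.49 and 6.58 in PT and 7.96, 8.96 and 4.69 in Pushen. Tgfbr1, the type I receptor kinase, stood at 3.44, 3.20 and 2.89 FPKM in Sham, 8.22, 8.09 and 6.67 in PT and 8.02, 8.60 and 4.80 in Pushen. For both genes the infarct libraries lay wholly above the Sham libraries. In PT, Tgfbr2 rose 3.06-fold (log2 fold change 1.61 ± 0.23, edgeR adjusted p = 0.00143). The rise of Tgfbr1 was 2.31-fold (1.21 ± 0.20, edgeR adjusted p = 0.00261).

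Of the Smads, Smad7 rose and Smad3 did not pass. Smad3, which carries the signal to the nucleus, was the most abundant of the 10 transcripts in Sham by FPKM. Its values were 12.42, 13.46 and 11.85 FPKM in Sham, 11.38, 12.50 and 11.71 in PT and 13.02, 13.07 and 13.20 in Pushen, so that Sham and PT overlapped. The log2 fold change in PT was -0.14 ± 0.07 with a 95% interval from -0.30 to 0.02 (edgeR adjusted p = 0.164), an interval that holds no rise above 0.02 and no fall beyond 0.30. Smad7, the inhibitory Smad, stood at 3.52, 3.52 and 4.10 FPKM in Sham, 6.35, 6.48 and 5.14 in PT and 5.35, 5.18 and 5.02 in Pushen. All infarct values exceeded all Sham values, and the rise in PT was 1.55-fold (log2 fold change 0.63 ± 0.11, edgeR adjusted p = 0.00306).

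Tgfbi, a matrix protein induced by TGF-beta in many cells and also made by macrophages, was also among the largest changes. It stood at 0.73, 0.75 and 0.94 FPKM in Sham, 12.86, 7.69 and 7.40 in PT and 8.06, 9.63 and 4.13 in Pushen. PT library 1 was the highest and Pushen library 3 the lowest of the infarct libraries, and none reached down to Sham. The fitted rise was 11.1-fold (log2 fold change 3.47 ± 0.34, edgeR adjusted p = 0.000461). A refit left out PT library 1 and Pushen library 2, the libraries highest in choroid plexus markers, but kept Pushen library 3 (198 FPKM). In that refit the log2 fold changes in PT were 3.16 for Tgfbi, 4.03 for Ltbp2, 2.37 for Tgfb1, 1.45 for Tgfbr2 and 1.16 for Tgfbr1, and all of these passed.

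The order of the levels in FPKM changed between the groups. In Sham the mean was highest for Smad3 (12.6 ± 0.816), followed by Tgfb3 (3.95 ± 0.338) and Smad7 (3.71 ± 0.335), whose libraries overlap, then Tgfbr1 (3.18 ± 0.276), Tgfbr2 (2.65 ± 0.145) and Tgfb2 (1.51 ± 0.0851), each apart from its neighbours. Tgfb1 (0.977 ± 0.104), Tgfbi (0.807 ± 0.116) and Ltbp1 (0.697 ± 0.133) overlap from one to the next, and Ltbp2 was lowest (0.113 ± 0.0322). In PT, Smad3 (11.9 ± 0.576) and Tgfbi (9.32 ± 3.07) came first, with overlapping libraries; the place of Tgfbi rests on PT library 1, without which the PT means were 7.55 FPKM for Tgfbi, 7.54 for Tgfbr2 and 7.38 for Tgfbr1. Tgfbr2 (8.42 ± 1.81) and Tgfbr1 (7.66 ± 0.860) followed and overlapped with each other and with Tgfbi, and an overlap was also seen among Smad7 (5.99 ± 0.739), Tgfb1 (5.67 ± 1.25) and Tgfb3 (5.63 ± 0.693). Tgfb2 (2.25 ± 0.156) and Ltbp2 (2.23 ± 0.528) overlapped too, and Ltbp1 was lowest (1.21 ± 0.104).

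Cell type markers moved with these genes. Against 19.1% of all tested genes called higher in PT, 8 of 11 microglia markers rose, and their summed level was between 63.9 and 85.7 FPKM in Sham, 165 and 253 in PT and 133 and 197 in Pushen. Of 10 macrophage and monocyte markers 7 were tested and 6 rose. Among those 7 only Lyz2, at 4.40, had a Sham mean of at least 0.5 FPKM. The rest of the 7 passed the filter only through the infarct groups and so had to lie higher there. The sum of the 10 markers was between 4.91 and 7.37 FPKM in Sham, 510 and 618 in PT, and 119 and 665 in Pushen, with Pushen library 3 at the bottom. Nearly all of that sum is the lysozyme gene Lyz2 (499 to 606 FPKM in PT, 113 in Pushen library 3); the other 9 markers together stood between 1.27 and 1.68 FPKM in Sham, 10.5 and 15.1 in PT and 5.99 and 12.3 in Pushen, again with Pushen library 3 lowest. Of 10 fibroblast and meningeal markers 9 were tested and all 9 rose, with sums between 24.5 and 27.0 FPKM in Sham, 120 and 176.5 in PT and 70.0 and 165 in Pushen. One of them, Col3a1, at a mean of 0.247 FPKM in Sham, passed the filter only through the infarct groups and so had to lie higher there. Astrocyte markers rose in 9 of 10 cases, and their sums were between 478 and 527 FPKM in Sham, 820 and 1158 in PT and 716 and 937 in Pushen. None of these markers was at 0 in every library: the macrophage gene Ms4a7 was listed at 0 in Sham library 1 and the fibroblast gene Dpt in Sham library 2 and PT library 3, and these were the only such entries in the 4 lists. The part of these cells in the changes of the 10 genes was not tested.

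**Figure D3:**
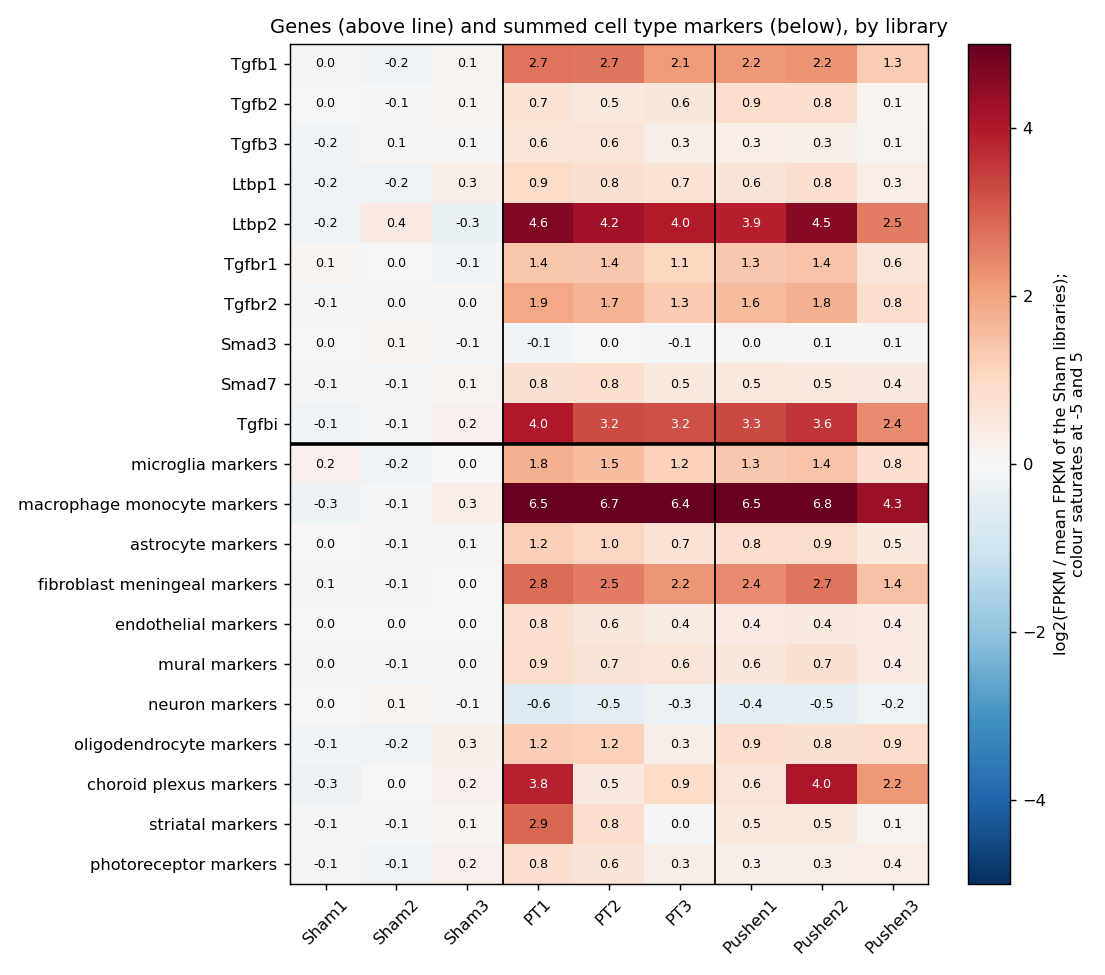
Colour and numbers give the log2 ratio of FPKM to the mean of the Sham libraries for each of the 10 genes (above the line) and for the summed FPKM of each cell type marker list (below the line), in each library. Pushen library 3 has the lowest infarct value of Tgfb1 (1.27) and of the macrophage and monocyte markers (4.33), and PT library 1 and Pushen library 2 have the highest choroid plexus values (3.85 and 4.04).

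Pushen was compared with PT to ask whether the treatment altered these transcripts. None of the 10 genes passed; the median log2 fold change was -0.23, 8 of 10 values were negative, and the two-sided unadjusted p of edgeR's quasi-likelihood test was under 0.05 for 2 genes, Tgfb1 and Tgfb3. Across all 16740 genes, 0.0% were called, 6.49% had an unadjusted p under 0.05 and the median was -0.0081. DESeq2 called 49 genes in all and 0 of the 10. Tgfb1 was lower in Pushen by a log2 fold change of -0.59 ± 0.25, with a 95% interval from -1.16 to -0.01 (edgeR adjusted p = 0.707), and its libraries overlapped those of PT. Without Pushen library 3 the value was -0.34. Tgfb3 stood at -0.27 ± 0.11 (interval -0.53 to -0.01, edgeR adjusted p = 0.707), also with overlapping libraries.

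The other estimates were smaller against their errors. Smad7 stood at -0.22 ± 0.11, with an interval from -0.46 to 0.02. For Ltbp2 the estimate was -0.44 ± 0.42 (interval -1.38 to 0.50), for Tgfbi -0.37 ± 0.31 (-1.07 to 0.33) and for Tgfbr2 -0.24 ± 0.22 (-0.75 to 0.27). Without Pushen library 3 these 3 were -0.07, -0.09 and -0.01. Ltbp1 (-0.20 ± 0.16), Tgfbr1 (-0.11 ± 0.20) and Tgfb2 (0.06 ± 0.19) lay near 0, and Tgfbr1 turned to 0.10 without that library. Smad3 was the 1 gene of the 10 whose Pushen libraries all lay above its PT libraries, by 0.13 ± 0.07 (interval -0.03 to 0.29, edgeR adjusted p = 0.707); such a separation upward was seen in 7.25% of all tested genes, and a downward one, seen in none of the 10, in 5.19%.

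**Figure D4:**
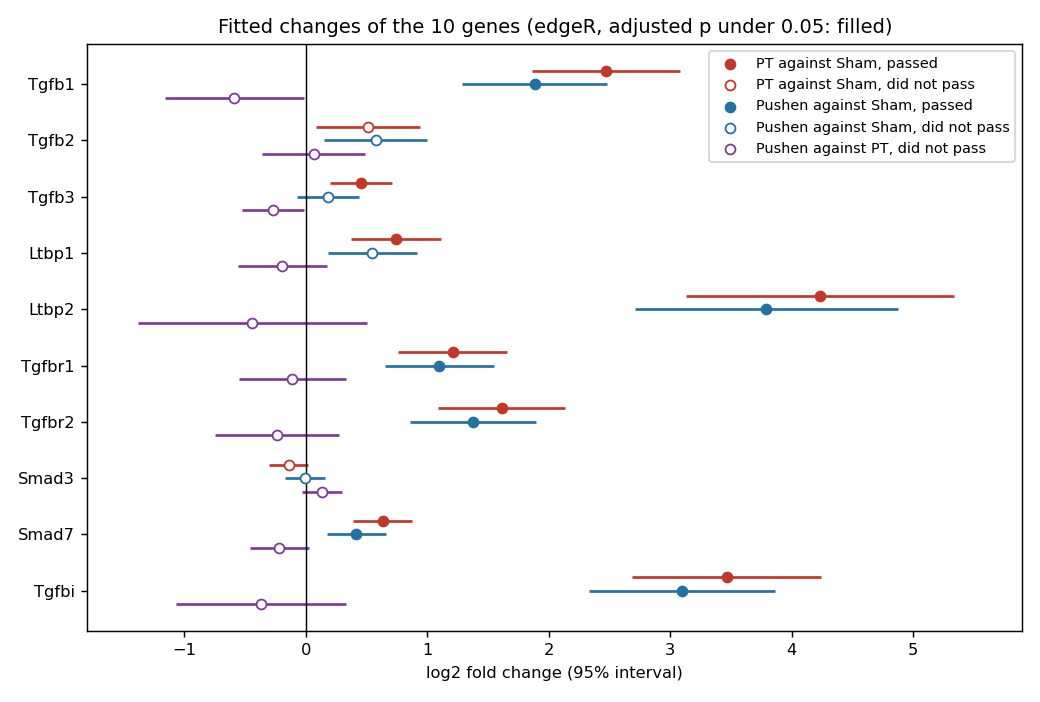
Fitted log2 fold changes (points) with 95% intervals (lines) for the 10 genes in the 3 comparisons; filled points passed an adjusted p of 0.05. Against Sham, 8 genes passed in PT and 6 in Pushen, while 0 passed in Pushen against PT, where the intervals of Tgfb1 and Tgfb3 end at -0.01.

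Pushen library 3 was the lowest infarct library for 9 of the 10 genes. It was also lowest for 66.2% of the 3202 genes called higher in PT and for 22.4% of all tested genes.

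Pushen against Sham shares its Sham libraries with the PT comparison, so its values are set beside those above and are not independent of them. Of the 10 genes 6 rose and 0 fell (median 0.84), where 16.2% of all tested genes were called, 13.5% higher and 2.73% lower (median -0.015). Ltbp2, counted among the 6, passed the filter only through the infarct groups and so had to differ here too. Ltbp2 stood at 3.79 ± 0.48 on the log2 scale, Tgfbi at 3.10 ± 0.34, Tgfb1 at 1.88 ± 0.26, Tgfbr2 at 1.37 ± 0.23 and Tgfbr1 at 1.10 ± 0.20, all past the threshold, as in PT. Every Pushen library lay above every Sham library in 8 of the 10 genes, beside 27.2% of all tested genes. Smad7 passed at 0.42 ± 0.11 (edgeR adjusted p = 0.0302), and lost the call without Sham library 1 or 2, or without Pushen library 1 or 2 (adjusted p = 0.0968, 0.114, 0.0994 and 0.0882). The call was also lost without PT library 1 and Pushen library 2 together (0.078), with no FPKM filter (0.0701) and with quantile normalisation (log2 fold change 0.28, limma adjusted p = 0.0925). Ltbp1 (0.55 ± 0.16, edgeR adjusted p = 0.0511), Tgfb2 (0.57 ± 0.19, 0.0698) and Tgfb3 (0.19 ± 0.11, 0.293) did not pass. Without Pushen library 3, Ltbp1 and Tgfb2 passed (0.0253 and 0.00182), and Ltbp1 passed also without Sham library 3 or PT library 1 (0.0283 and 0.0479). With all libraries, DESeq2 called both (adjusted p = 0.015 for Ltbp1 and 0.0279 for Tgfb2), and edgeR with scaling by library size alone called Ltbp1 (0.0352). Smad3 stood at -0.01 ± 0.07 (interval -0.17 to 0.15).

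The rest of the pathway was read from 6 lists that hold 113 other genes, of which 105 were tested. In PT 59 of them rose and 8 fell, with a median log2 fold change of 0.68, beside the 30.9% called among all genes. A mean under 0.5 FPKM in at least 1 group was found for 15 of the 105, Thbs1, Cd109, Runx1, Tgif1, Col3a1 and Lox among them, which passed the filter only through the groups where they are higher; of the other 90, 47 rose and 8 fell (median 0.43). Of 21 genes of latency and activation 17 were tested, 14 rose and 0 fell (median 1.41). They included the membrane protease Mmp14 (2.86 ± 0.27), Emilin1, a matrix protein that restrains TGF-beta processing (2.47 ± 0.30), the integrin subunit Itgb5 (1.79 ± 0.23) and thrombospondin 1, Thbs1, an activator of the latent complex (3.31 ± 0.44). Thbs1 stood at 0.21, 0.30 and 0.40 FPKM in Sham and at 3.73, 2.70 and 2.94 in PT. Leaving out Thbs1, which passed the filter only through the infarct groups, 13 of 16 genes of latency and activation rose and 0 fell (median 1.27).

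Known targets of the pathway also rose. Of 31 listed targets, Ltbp2 among them, 30 were tested. Of these 25 rose and 0 fell (median 1.48), beside 19.1% called higher and 11.8% lower among all tested genes. Without the 8 that had a mean under 0.5 FPKM in some group, 17 of 22 rose (median 1.09). The intermediate filament Vim rose by 3.20 ± 0.27 on the log2 scale, the transcriptional inhibitor Id3, mainly a target of the related BMP signal, by 2.22 ± 0.19, the collagen Col3a1 by 5.24 ± 0.48 and the collagen cross-linking oxidase Lox by 4.06 ± 0.38. Col3a1 is also among the fibroblast markers given above, as is Dcn among the inhibitors. On log2(FPKM + 1) the changes of low genes in the pathway lists were smaller, at 0.73 for Runx1, 0.96 for Tgif1, 1.11 for Cd109, 1.66 for Thbs1, 1.71 for Lox and 3.08 for Col3a1, and all 6 passed. Emilin1 (1.46), Smad6 (0.68) and Bmp5 (0.77) were also lower on that scale and passed. These targets answer to other signals as well, and a rise in them was measured here only as RNA.

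**Figure D5:**
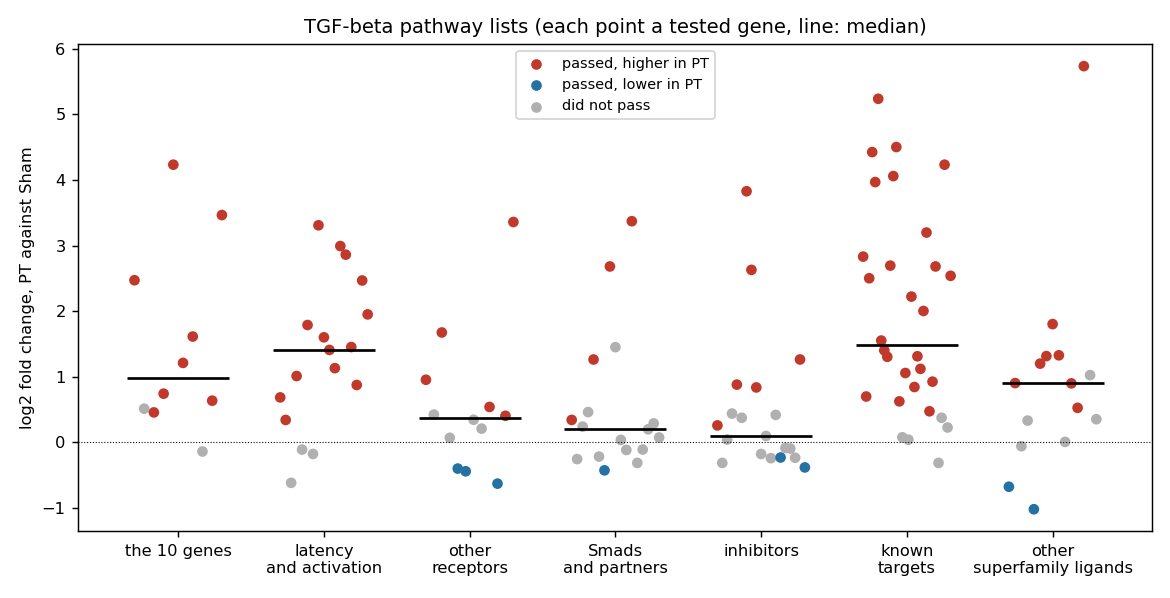
Log2 fold change in PT against Sham (vertical axis) of each tested gene in the 10 genes and the 6 pathway lists (points), with the median of each list (line); colour gives the test's call. Medians are 1.41 for latency and activation and 1.48 for known targets, and 0.20 and 0.10 for the Smads with their partners and the inhibitors. When genes with a mean under 0.5 FPKM in some group are left out, these medians are 1.27, 1.09, 0.05 and 0.10.

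The lists of receptors, Smads and inhibitors held calls in both directions, read beside the 30.9% called among all genes (19.1% higher and 11.8% lower). Of 12 other receptors, all tested, 5 rose and 3 fell (median 0.37). Without Cd109, which passed the filter only through the infarct groups, 4 of 11 rose and 3 fell (median 0.34). The co-receptor Cd109, an inhibitor of TGF-beta signalling, rose by 3.36 ± 0.44, the endothelial type I receptor Acvrl1 by 1.67 ± 0.33 and the BMP receptor Bmpr1b by 0.54 ± 0.10. The type II BMP receptor Bmpr2 fell by 0.63 ± 0.09. Acvrl1 was highest in PT library 1 (8.32 FPKM, beside 3.29 and 4.23 in PT libraries 2 and 3). When single libraries were left out, its log2 fold change was 1.19 at the lowest. Of 18 Smads and partners 17 were tested, 4 rose and 1 fell (median 0.20), a share near that of all genes. Without Runx1, Tgif1 and Tgif2, which passed the filter only through the infarct groups, 2 of 14 rose and 1 fell (median 0.05). The transcription factor Runx1 rose by 3.37 ± 0.35, the corepressor Tgif1 by 2.68 ± 0.30 and the inhibitory Smad6 by 1.26 ± 0.23, and Zfyve9, the anchor that presents Smads to the receptor, fell by 0.43 ± 0.10. Zfyve9 lost its call without Sham library 2 (adjusted p = 0.0514), where 3 of this list were called in place of 5.

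Of 19 inhibitors 6 rose and 2 fell (median 0.10). The small proteoglycans Dcn, Bgn and Fmod, which bind TGF-beta in the matrix, rose by 3.83 ± 0.36, 2.63 ± 0.36 and 0.84 ± 0.11, and Smad6 is listed here too. This count of 8 dropped to 4 without Sham library 1, 2 or 3, PT library 2 or Pushen library 1, and without PT library 1 and Pushen library 2 together, and to 5 without PT library 1. With all libraries but without Bambi and Grem1, which had a mean under 0.5 FPKM in some group, 5 of 17 inhibitors rose and 2 fell (median 0.10).

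Of 17 other ligands of the superfamily 15 were tested. Among them 8 rose and 2 fell (median 0.90), beside 19.1% called higher and 11.8% lower among all tested genes. Leaving out Gdf15 and Lefty1, which had a mean under 0.5 FPKM in some group, 7 of 13 rose and 2 fell (median 0.52). The bone morphogenetic proteins Bmp6, Bmp7, Bmp5 and Bmp4 rose by 1.80 ± 0.21, 1.33 ± 0.14, 1.31 ± 0.18 and 1.20 ± 0.20. Bmp6 stood at 2.50, 2.46 and 2.62 FPKM in Sham, 11.13, 9.79 and 6.64 in PT and 8.26, 9.02 and 5.62 in Pushen. The 2 that fell, named after their values were seen, were Bmp3 (-1.02 ± 0.21) and the activin subunit Inhba (-0.68 ± 0.14).

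In Pushen against PT, 0 of the 105 other pathway genes passed, and 5 had an unadjusted p under 0.05, beside 6.49% of all tested genes. These 5, named after their values were seen, were Junb (-0.72 ± 0.16), Acvrl1 (-0.98 ± 0.32), Fmod (-0.31 ± 0.11), Bmp3 (0.54 ± 0.21) and Bmpr2 (0.21 ± 0.09), each with an edgeR adjusted p of 0.707. Acvrl1 stood at 8.32, 3.29 and 4.23 FPKM in PT and 2.85, 3.01 and 2.21 in Pushen, with PT library 1 far above the rest. Junb, an early transcription factor gene, stood at 15.98, 24.02 and 25.04 FPKM in Sham, 49.59, 42.21 and 54.75 in PT and 30.76, 29.62 and 28.96 in Pushen, so that its Pushen libraries lay wholly below its PT libraries. DESeq2 called it (log2 fold change -0.716 ± 0.175, adjusted p = 0.0202). In Pushen against Sham 48 of the 105 rose and 2 fell (median 0.49), beside 13.5% of all tested genes called higher and 2.73% lower. The 105 include the 15 genes with a mean under 0.5 FPKM in at least 1 group.

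The transcripts most like each ligand were sought by Pearson correlation of log2 CPM (counts scaled to library depth) over the 9 libraries, which mainly separate Sham from infarct. For Tgfb1 they were the lysosomal protease Ctsd (r = 0.998), the lysosomal hexosaminidase subunit Hexa (0.998) and the kinase Rps6ka1 (0.997), with r of 0.992, 0.983 and 0.989 over the 6 infarct libraries alone. Ctsd stood between 94.1 and 101 FPKM in Sham, 427 and 647 in PT and 223 and 520 in Pushen. For Tgfb2 they were the transcription factor Zbtb20 (0.987), the replication helicase subunit Mcm4 (0.967) and the laminin chain Lamb1 (0.965). For Tgfb3 they were the SUMO protease Senp3 (0.991), the translation factor Eif4b (0.987) and Zdhhc18 (0.984). No gene was shared between the 3 sets, but with only 3 genes taken per ligand this does not set the ligands apart. Over the same libraries Tgfb1 correlated with Tgfb2 at 0.849 and with Tgfb3 at 0.867, and Tgfb2 with Tgfb3 at 0.63. These are descriptions of 9 points that share libraries and sequencing depth.

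By the coordinates of the deposited table, which equal GENCODE M21 on GRCm38 for all 10 genes, Tgfb1 lies on chromosome 7 from 25687002 to 25705077, Tgfbr1 on chromosome 4 from 47353222 to 47414931, Ltbp1 on chromosome 17 from 75005568 to 75392512 and Tgfbi on chromosome 13 from 56609523 to 56639562, all on the plus strand with Smad7. On the minus strand Tgfb2 lies on chromosome 1 from 186622792 to 186705989, Tgfb3 on chromosome 12 from 86056745 to 86079041, Ltbp2 on chromosome 12 from 84783212 to 84876532, Tgfbr2 on chromosome 9 from 116084293 to 116175360 and Smad3 on chromosome 9 from 63646767 to 63757994. All are protein-coding, and the counts cover whole genes, so exons and transcript forms were not told apart. Opposite-strand exons overlap those of Tgfb2 (2.14% of exon bases, Gm29491) and Tgfb3 (7.6%, Gm48008, and 4.82%, Gm37804), with at most 11 counts per library in the overlapping genes.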

How the data were processed

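Bulk RNA was measured in 9 mouse brain libraries, 3 per group. Per the file headers, the authors deposited read counts per gene and FPKM for each library; all 18 value columns were used. The submitters' processing notes name Bowtie 0.12.2 and build mm8, while the table's coordinates equal GRCm38 for 51957 of 55141 shared genes (94.2%); the counter and its strand setting are not stated there. The 16740 genes whose FPKM averaged 0.5 or more across the 9 libraries were tested on the deposited counts with edgeR 4.0.16 (R 4.3.3), TMM scaling and quasi-likelihood tests, in one fit of the 3 groups. P-values were Benjamini-Hochberg adjusted over all tested genes and called under 0.05; errors are SE for fold changes and SD for levels. Alternatives used DESeq2 1.42.0 and limma 3.58.1, other scalings and filters, FPKM on a log2 scale with pseudocounts of 1 and 0.1, and omission of libraries. The scripts were tested on simulated data. Ligand shares were compared with exact permutation tests (scipy 1.17.1), and figures drawn with matplotlib 3.10.9.

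All 10 genes are reported; from each other pathway list the text names up to 4 genes of smallest p in PT against Sham and any gene called in Pushen against PT, and for each ligand the 3 genes of highest correlation. The 10 genes and the lists were chosen with earlier results of these data known. Intervals cover the spread between libraries only. Photoreceptor, oligodendrocyte, endothelial and mural marker lists were also computed. Of the 10 to 11 markers in each of the last 3, 6, 8 and 7 rose in PT, beside 19.1% of all tested genes called higher.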

Additional observations from a re-analysis of the deposited data

How the results depend on the processing

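With the replicate number as a block, 8 of the 10 genes were called for PT and 5 for Pushen when set against Sham, and 0 between the infarct groups, beside 4266, 2108 and 0 of all genes; same-numbered libraries correlated between -0.22 and 0.0988 in their deviations, so the numbers were not taken as pairs. Under the block Smad7 in Pushen against Sham had an adjusted p of 0.0729. Over all alternatives the 10 genes gave 7 to 9 calls for PT and 5 to 8 for Pushen when set against Sham, and 0 between the infarct groups. Of 200 refitted fold changes in each comparison, 193 (PT against Sham), 197 (Pushen against PT) and 179 (Pushen against Sham) kept their direction and side of the threshold. In Pushen against PT, Tgfb2 ranged from -0.069 to 0.27 and Tgfbr1 from -0.27 to 0.10 when single libraries were left out; in Pushen against Sham, Smad3 ranged from -0.053 to 0.036 in that way and was 0.063 by library size alone, 0.056 and 0.060 with FPKM pseudocounts of 1 and 0.1, and 0.030 with quantile normalisation. Leaving out single libraries gave 3198 to 5799 called genes in PT against Sham, 0 to 5 in Pushen against PT and 1538 to 3736 in Pushen against Sham. In Pushen against PT, DESeq2 called 49 genes, 1 of them among the other pathway genes, a fit of only those groups called 1, and the fit without PT library 1 and Pushen library 2 called 2. Quantile normalisation, chosen after the data were seen, called 2510 genes higher and 3490 lower in PT in place of 3202 and 1974, and moved the median of all genes by -0.14 (by -0.12 in Pushen against Sham). Computed from counts in place of FPKM, the Tgfb2 share differed by -10.7 points in PT and -4.54 in Pushen, against Sham. The cause of these shifts was not tested. Depth left Ltbp2 in Sham at 60 to 99 counts.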
